A study of Homo sapiens with 80 samples.

Results

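The cells described here are WTC11 human induced pluripotent stem cells on days 4 and 6 of a differentiation to heart muscle that ended with low purity. Purity was scored by the submitters on day 16, by flow cytometry for cardiac troponin T. The gene set was every gene listed at 1 TPM or more in at least 3 of the 8 wells, which gave 19754 of the 43388 genes in the table. TPM is a share of the library corrected for transcript length. The low purity group held 4 wells on day 4 and 4 wells on day 6, all from 1 differentiation begun at passage 69. The high purity group used beside it held 4 wells on each of the same days, from 1 differentiation begun at passage 52. The effect of purity, that of passage and that of the single culture run cannot be told apart, and wells measure the spread between dishes of 1 differentiation. The labels name no genetic change in either group. Every well received CHIR99021, which activates WNT signalling, on day 0, then IWP2, which blocks WNT secretion, on day 2. IWP2 was left out of the fresh medium on day 4, and medium with insulin was first given on day 6. The labels do not say whether wells were collected before or after the medium change of the day. The whole series held 80 libraries, 56 of them from this multi-omic experiment.

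Heart muscle arises in this protocol by the route it takes in the embryo. Pluripotent cells pass through a primitive streak state marked by NODAL and T-box factors, become mesoderm, and then become cardiac progenitors in which NKX2-5, TBX5, GATA4 and HAND factors switch on the genes of the sarcomere, the contractile unit. The same mesoderm can also give rise to the epicardium, the outer cell layer of the heart, which in turn yields smooth muscle and fibroblasts. Epicardial cells are known by WT1 and TBX18, and WNT and retinoic acid signals are known to favour them.

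Poly(A) RNA was sequenced from each well. The reads recovered from the TPM values numbered 9334303 to 11386125 on day 4 and 7682563 to 8743290 on day 6, so the day 6 wells were shallower (two-sided exact permutation test, p = 0.0286, the smallest that 4 against 4 can give). The mitochondrial ribosomal RNA RNR2 took 16.0% to 16.4% of TPM on day 4 and 16.5% to 18.5% on day 6, and the small nuclear RNA RN7SK took 6.72% to 7.18% and 8.12% to 9.99%. Both shares moved with the day (exact permutation test, p = 0.0286 for each), and with mitochondrial genes and RN7SK left out 97.1% of the calls below were kept and 1920 genes were called. On a principal component analysis of the 8 wells, the first component held 47.8% of the variance and separated the days. The second held 11.2% and set day 6 well 4 apart, at -50.0 against 7.23 to 34.3 for the other day 6 wells. That well was still closest to another day 6 well. Calls of listed genes that ended without it are named below. In bulk RNA, fewer cells of a type and less RNA per cell cannot be told apart.

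Between day 4 and day 6, 13 of 28 sarcomere genes and 8 of 18 epicardial genes rose, and 9 of 15 primitive streak genes and 6 of 19 cholesterol synthesis genes fell. A gene was called where the adjusted p of limma was under 0.05 and the difference was at least 1 on the log2(TPM + 1) scale, which understates the change of low genes. Of the genes tested 8.45% were called, 978 higher on day 6 (4.95%) and 691 lower (3.5%). By the adjusted p alone, with no threshold on size, the balance turned, with 3958 higher and 4806 lower. The median difference over all genes was -0.015. Its sign depended on the scaling: it was 0.027 with RLE in place of TMM and 0.037 with no scaling beyond TPM. With 0.1 TPM added in place of 1 it was -0.02. The balance without a threshold on size was counted with the main scaling only. The lowest well of one day stood above the highest well of the other in 38.8% of all genes tested and in 90.0% of those called. The expression minimum admitted 574 genes that reached 1 TPM in no day 4 well and 277 that reached it in no day 6 well. Those genes passed only through the day on which they were high, and they made up 267 and 156 of the calls. PCDHGB5 lay just inside the minimum, where the well that decides entry, ranked 3 from the top, had 1.0005 TPM, and LOC107984376 just outside it, at 0.9998 TPM. Protein-coding genes made up 1034 of the calls and long noncoding RNAs 353. Of 1667 called genes with recovered reads, 252 had 10 reads or fewer in every well.

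Of the 28 sarcomere genes tested, 13 rose and 0 fell. Their median difference was 0.86, against -0.015 over all genes. Of the 28, 2 reached 1 TPM in no day 4 well, MYH7 and MYOM1, and so entered only through day 6, which favours a rise. MYL2 and MYOM2 were under the expression minimum. A gene can stand in more than 1 of the lists described here. MYL3, a myosin light chain of ventricle and slow muscle, stood at 3.74, 5.6, 7.45 and 7.26 TPM in day 4 wells 1 to 4 and 216, 271, 242 and 74.5 TPM in day 6 wells 1 to 4. All day 6 wells were above all day 4 wells, with well 4 the lowest, and the log2 difference was 4.66 (SE 0.37, adjusted p = 3.11e-14). MYBPC3, cardiac myosin-binding protein C, stood at 0.749, 1.16, 0.738 and 0.8 TPM in day 4 wells 1 to 4 and 47.9, 56.1, 49.4 and 18 TPM in day 6 wells 1 to 4. The pattern was the same, with a difference of 4.34 (SE 0.26, adjusted p = 4.72e-18). MYH7, the beta-myosin heavy chain of adult ventricle, was at 0.313, 0.203, 0 and 0.465 TPM in day 4 wells 1 to 4 and 39.3, 42.9, 41.0 and 16.5 TPM in day 6 wells 1 to 4. It was nearly absent on day 4 and differed by 4.64 (SE 0.26, adjusted p = 3.15e-19). MYOM1, which ties thick filaments together at the M-band, rose by 4.48. MYH6, the alpha-myosin heavy chain of early and atrial muscle, was already present on day 4. It read 110.1, 103, 99.4 and 118 TPM in day 4 wells 1 to 4 and 678, 810.1, 676 and 262 TPM in day 6 wells 1 to 4, and its difference was 2.31 (SE 0.25, adjusted p = 1.54e-10). MYH6 and MYH7 are near-identical neighbours on chromosome 14, and how shared reads were assigned between them is not given in the sources used here. CSRP3, LMOD2, MYOZ2, ACTA1, ACTN2, LDB3, TNNI1 and TMOD1 were the other sarcomere genes called higher.

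TNNT2, which encodes the cardiac troponin T used to score purity (chr1:201359014-201377680 on GRCh38.p14), did not reach the threshold. It stood at 489, 486, 457 and 524 TPM in day 4 wells 1 to 4 and 1123, 1179, 1074 and 672 TPM in day 6 wells 1 to 4. Every day 6 well was above every day 4 well, and the difference of 0.95 (SE 0.28, adjusted p = 0.0039) fell just short of 1. Without day 6 well 4 the difference was 1.18 (adjusted p = 0.000884) and was called. The mean was 489 ± 27.4 TPM on day 4 and 1012 ± 230.4 TPM on day 6 (SD, n = 4), and the exact permutation test gave p = 0.0286. ACTC1, the cardiac alpha-actin and among the first sarcomere genes to appear in the embryo, went the other way. Its wells read 1916, 1537, 1453 and 2022 TPM in day 4 wells 1 to 4 and 1252, 1332, 1294 and 886 TPM in day 6 wells 1 to 4. All day 6 wells were below all day 4 wells, with a difference of -0.61 (SE 0.15, adjusted p = 0.000889) that was not called. XIRP1, a protein of the intercalated disc, stood at 59.2, 56, 56.3 and 63.4 TPM in day 4 wells 1 to 4 and 69.1, 74.8, 68.8 and 36.5 TPM in day 6 wells 1 to 4. Its groups overlapped. MYL7, TNNI3, MYL4 and TTN were also not called, though TTN was without well 4 (1.05). The summed TPM of the whole sarcomere list was 4938 to 5773 TPM on day 4 and 4585 to 7731 TPM on day 6, and the lowest day 6 sum was that of well 4.

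**Figure D1:**
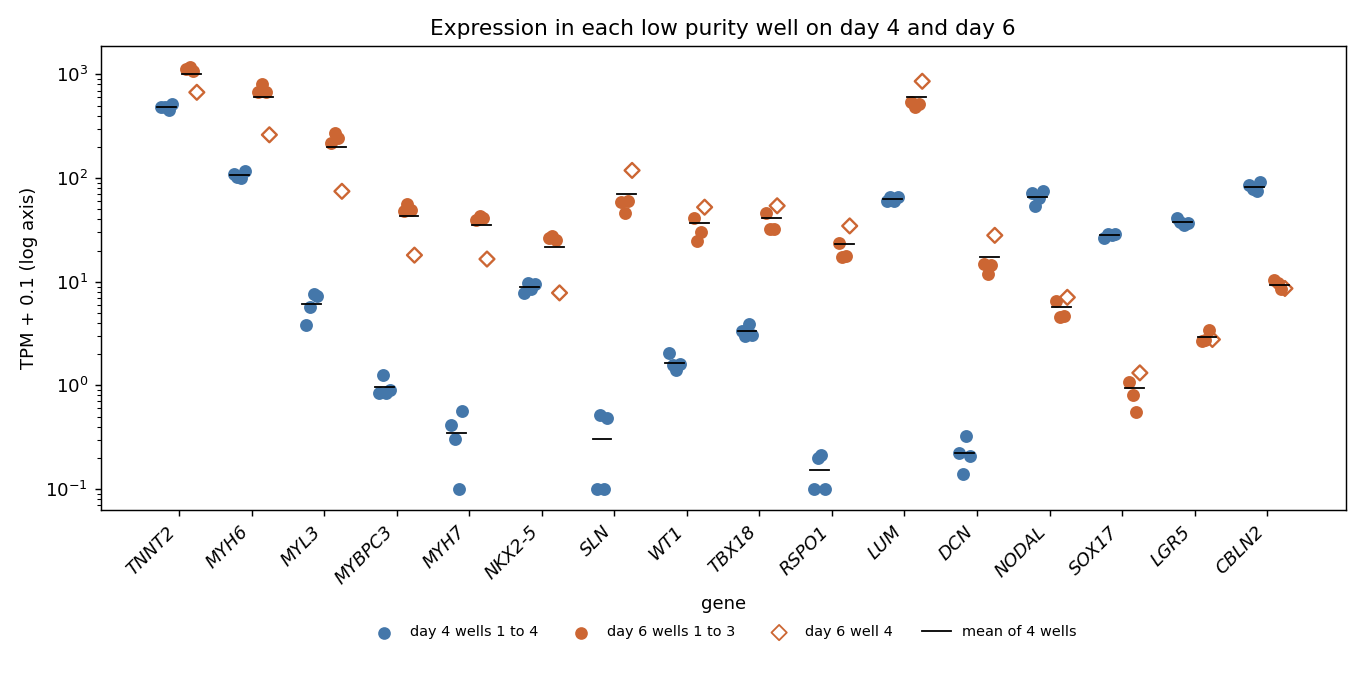
TPM + 0.1 on a log axis for 16 genes in every low purity well, day 4 in blue and day 6 in orange, with the mean of 4 wells as a black line. Day 6 well 4 (open diamond) lies below the other day 6 wells for the 6 heart muscle genes on the left and above them for SLN, WT1, TBX18, RSPO1, LUM and DCN, while NODAL, SOX17, LGR5 and CBLN2 are low in all 4 day 6 wells.

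These sarcomere genes did not move together, so the promoters of 2 that rose and 3 that were not called are printed for comparison. Each is the 250 bases before the RefSeq start site on GRCh38.p14, 5′ to 3′ on the gene's strand, and all 5 lie on the minus strand: MYH6 chr14:23408274-23408523, TNNT2 chr1:201377681-201377930, MYBPC3 chr11:47352703-47352952, ACTC1 chr15:34795550-34795799 and XIRP1 chr3:39192596-39192845. RefSeq lists 3 starts for ACTC1, of which the first in the table is shown. Capitals mark matches on either strand to any of 5 motifs. The first is the TATA box, searched as TATAAA. The motif of GATA-binding proteins was searched as AGATAA. That of TEAD proteins was searched as CATTCC. The others were the MEF2 consensus and the CArG box bound by serum response factor. The MEF2 consensus can overlap TATAAA.
MYH6: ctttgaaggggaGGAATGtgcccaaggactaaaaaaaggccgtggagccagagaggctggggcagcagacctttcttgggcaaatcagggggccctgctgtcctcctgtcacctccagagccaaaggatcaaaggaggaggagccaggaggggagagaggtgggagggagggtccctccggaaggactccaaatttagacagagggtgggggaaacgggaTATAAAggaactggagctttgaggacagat
TNNT2: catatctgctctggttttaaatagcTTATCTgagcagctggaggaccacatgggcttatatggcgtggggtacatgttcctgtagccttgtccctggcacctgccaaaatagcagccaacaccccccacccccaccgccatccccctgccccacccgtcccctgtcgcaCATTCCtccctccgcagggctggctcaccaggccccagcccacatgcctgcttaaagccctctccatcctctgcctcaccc
MYBPC3: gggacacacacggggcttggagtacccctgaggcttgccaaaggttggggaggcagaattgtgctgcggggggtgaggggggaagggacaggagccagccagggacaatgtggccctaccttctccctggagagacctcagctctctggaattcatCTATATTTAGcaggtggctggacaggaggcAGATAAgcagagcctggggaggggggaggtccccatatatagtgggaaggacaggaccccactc
ACTC1: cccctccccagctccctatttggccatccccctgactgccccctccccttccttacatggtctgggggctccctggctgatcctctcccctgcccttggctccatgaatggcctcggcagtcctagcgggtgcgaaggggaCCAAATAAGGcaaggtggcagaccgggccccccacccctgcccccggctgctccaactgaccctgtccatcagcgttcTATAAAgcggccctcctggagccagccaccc
XIRP1: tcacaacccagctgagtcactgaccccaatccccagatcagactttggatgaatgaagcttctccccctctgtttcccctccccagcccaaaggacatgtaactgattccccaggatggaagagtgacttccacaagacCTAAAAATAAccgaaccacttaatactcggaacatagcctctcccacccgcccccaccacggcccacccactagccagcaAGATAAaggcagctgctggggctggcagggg

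MYH6 and ACTC1 held TATAAA at bases -30 to -25 and -31 to -26. The AGATAA motif stood at -31 to -26 in XIRP1, at -64 to -59 in MYBPC3 and, on the opposite strand, at -225 to -220 in TNNT2. MEF2 matches lay at -94 to -85 in MYBPC3 and at -111 to -102 in XIRP1, and the CArG box of ACTC1 at -109 to -100. CATTCC lay at -81 to -76 in TNNT2 and, on the opposite strand, at -238 to -233 in MYH6. MYBPC3, which rose, and XIRP1, whose wells overlapped, thus both held MEF2 and AGATAA matches in this window. Promoters were in the table for 580 of the 978 genes called higher, 394 of the 691 called lower and 12795 of the 19754 tested. TATAAA was found in 15.0% of promoters of genes called higher, 11.2% of those called lower, 6.74% of those tested and 11.1% of the whole RefSeq table. The MEF2 consensus was in 3.79%, 2.54%, 1.83% and 2.9%, and the CArG box in 2.41%, 1.27%, 1.06% and 1.14%. AGATAA was in 10.7%, 8.88%, 6.23% and 9.37%, and CATTCC in 12.6%, 9.14%, 10.0% and 11.9%. These shares describe letters in a window and are not binding sites.

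Of the 22 cardiac transcription factors tested, 5 rose and 3 fell, with a median of 0.26. NKX2-5, an early and lasting regulator of heart muscle, stood at 7.65, 9.53, 8.38 and 9.51 TPM in day 4 wells 1 to 4 and 26.2, 27.5, 25.4 and 7.71 TPM in day 6 wells 1 to 4. In 3 of the day 6 wells it was well above day 4, and in well 4 it was within the day 4 range. The difference was 1.01 (SE 0.25, adjusted p = 0.000941), and 1.46 (adjusted p = 7.56e-07) without well 4. Leaving out any of the other day 6 wells ended the call (0.92 at the lowest), and the exact permutation test over all 8 wells gave p = 0.114. TBX5, a factor of the first heart field and atria, read 15.6, 24.7, 21.7 and 14.1 TPM in day 4 wells 1 to 4 and 55.1, 53.3, 45.7 and 35.7 TPM in day 6 wells 1 to 4. It rose by 1.23. HAND1, a factor of early mesoderm and the left ventricle, read 340.1, 356, 360.4 and 412 TPM in day 4 wells 1 to 4 and 754, 744, 847 and 1093 TPM in day 6 wells 1 to 4. It rose by 1.15 and was highest in well 4. NR2F2, an atrial and venous factor, rose by 2.7 and HOPX also rose. ISL1, a factor of second heart field progenitors, fell from 32.4, 32.0, 29.8 and 32.3 TPM to 16.5, 18.9, 14.9 and 8.71 TPM. Its difference was -1.15 (SE 0.13, adjusted p = 7.21e-10), and -0.89 (adjusted p = 2.59e-08) without well 4, where it was no longer called. MYOCD, the cofactor of serum response factor, fell by 1.34 on the log2 scale, and IRX3 was called lower, at the threshold: the call ended under 11 alternatives, day 6 well 4 left out among them (-0.91). GATA4 read 77.8 to 80.8 TPM on day 4 and 91.5 to 106 TPM on day 6 and was not called, as were GATA6, MEF2C, TBX20 and HAND2.

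Among 20 genes of calcium handling and excitation, 8 rose and 3 fell. SLN, which encodes sarcolipin, an inhibitor of the calcium pump of the sarcoplasmic reticulum, had the largest increase of the named genes on the log2(TPM + 1) scale, though the read ratio of RSPO1, given below, was higher. It lies at chr11:107707378-107712056 and stood at 0, 0.424, 0 and 0.389 TPM in day 4 wells 1 to 4 and 58.4, 46.3, 59.4 and 119 TPM in day 6 wells 1 to 4. It reached 1 TPM in no day 4 well and so entered only through day 6, which favours a rise. On day 4 it rested on 2 reads in all, and on day 6 on 519. The read ratio per library was 333, with an exact 95% counting interval of 91.7 to 2756, and the log2 difference was 5.69 (SE 0.28, adjusted p = 6.49e-21). Intervals of this kind cover counting error only. RYR2, the calcium release channel, read 22.2, 21.7, 20.1 and 19 TPM in day 4 wells 1 to 4 and 53.3, 52.9, 43.2 and 42.7 TPM in day 6 wells 1 to 4. It rose by 1.1, without overlap between days. CACNA1C, the pore of the L-type calcium channel, rose by 1.46, and KCNJ5, an atrial potassium channel subunit, by 1.52. GJA1, the gap junction protein connexin 43, fell from 1207 ± 65.7 to 411 ± 53.0 TPM (SD, n = 4), a difference of -1.62 (SE 0.11, adjusted p = 5.7e-16). NPPA, the atrial natriuretic peptide, read 3.95 to 6.07 TPM on day 4 and 4.31 to 12.2 TPM on day 6. The days overlapped, and the difference was not called (adjusted p = 0.329).

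Of 18 epicardial genes tested, 8 rose and 1 fell, with a median of 0.87. Of the 18, 4 reached 1 TPM in no day 4 well, RSPO1 and ALDH1A1 among them, and so entered only through day 6. The count and median describe the genes that entered. WT1, a zinc finger factor of the epicardium (chr11:32387775-32435539), stood at 1.95, 1.48, 1.3 and 1.51 TPM in day 4 wells 1 to 4 and 41.4, 24.7, 30.0 and 52.3 TPM in day 6 wells 1 to 4. Day 6 was above day 4 in every well, highest in well 4, and the difference was 3.75 (SE 0.13, adjusted p = 3.63e-26). TBX18, another epicardial factor, read 3.23, 2.87, 3.8 and 3.0 TPM in day 4 wells 1 to 4 and 45.9, 31.9, 31.9 and 54.0 TPM in day 6 wells 1 to 4. It rose by 3.2. RSPO1, which encodes a secreted enhancer of WNT signalling, read 0, 0.0991, 0.112 and 0 TPM in day 4 wells 1 to 4 and 23.7, 17.3, 17.7 and 34.5 TPM in day 6 wells 1 to 4. It rested on 2 reads on day 4 and 731 on day 6, a ratio of 469 with a counting interval of 129 to 3878. ALDH1A1, a retinaldehyde dehydrogenase that makes retinoic acid, read 0, 0.146, 0.165 and 0.268 TPM in day 4 wells 1 to 4 and 40.4, 53.2, 54.1 and 22.3 TPM in day 6 wells 1 to 4. Unlike WT1, TBX18 and RSPO1, it was lowest on day 6 in well 4. ANXA8, BNC2, BNC1 and PDPN also rose, ANXA8 having near-identical copies that can split its reads. ALDH1A2, the main embryonic enzyme for retinoic acid and a known epicardial gene, fell instead, from 3.1 ± 0.554 to 0.871 ± 0.277 TPM (SD, n = 4), by 1.14 on the log2 scale. TCF21 and UPK3B were not called, and UPK3B reached the threshold only without well 4 (1.0). Whether antisense transcripts, such as the one beside WT1, were counted apart is not given in the sources used here.

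Of 29 fibroblast and matrix genes, 9 rose and 4 fell. LUM, the collagen-binding proteoglycan lumican, read 60.6, 66.1, 60.5 and 66.1 TPM in day 4 wells 1 to 4 and 545, 490.1, 519 and 859 TPM in day 6 wells 1 to 4. It was already present on day 4 and rose by 3.13 to a level that was highest in well 4. DCN, the related proteoglycan decorin, read 0.124, 0.0401, 0.227 and 0.111 TPM in day 4 wells 1 to 4 and 14.7, 11.7, 14.4 and 28.0 TPM in day 6 wells 1 to 4, and differed by 3.81 (SE 0.19, adjusted p = 1.11e-20). It entered only through day 6. POSTN, the matrix protein periostin, rose by 3.6, and COL6A3, a chain of type VI collagen, by 3.08. COL3A1, FN1, COL1A2, MFAP4 and SPARC were also called. COL1A1 read 494 to 500.3 TPM on day 4 and 798 to 1118 TPM on day 6. Its wells did not overlap, but the difference of 0.80 (SE 0.10, adjusted p = 1.6e-08) was under the threshold. PDGFRA, a receptor shared by early mesoderm and fibroblasts, fell with HAPLN1, FBN2 and THY1, of which THY1 was not called without day 6 well 4 (-0.98). The summed TPM of the list was 6213 to 6445 TPM on day 4 and 11098 to 11528 TPM on day 6, and that of the epicardial list 2627 to 2785 TPM on day 4 and 2983 to 3857 TPM on day 6. Among 12 smooth muscle genes 2 rose. ACTA2, smooth muscle actin and also an early embryonic heart gene, went from 116, 92.4, 95.7 and 119.6 TPM to 480.0, 529, 553 and 550.0 TPM, a difference of 2.25 (SE 0.18, adjusted p = 3.52e-14). SYNPO2, an actin-bundling protein, rose by 2.02. It read 0.1 to 0.247 TPM on day 4 and 3.44 to 4.42 TPM on day 6, and so entered only through day 6. TAGLN, a common smooth muscle marker, overlapped between days (88.4 to 111 and 81.1 to 100.4 TPM), and MYH11 was under the minimum.

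Markers of blood vessel and blood were thin. Of 22 listed genes, 10 were under the minimum, among them PECAM1 and CDH5, which define endothelium. PECAM1 read 0 to 0.0941 TPM on day 4 and 0.0557 to 0.455 TPM on day 6. KDR, the receptor for VEGF that cardiac mesoderm also carries, read 348 to 365 and 224 to 296 TPM and was not called. TEK, the angiopoietin receptor, rose by 1.86 and LMO2, a cofactor of blood progenitors, by 1.23, while GATA2 and CD34 fell (-1.38 and -1.28). LMO2 read 0 to 0.555 TPM on day 4 and 1.61 to 2.68 TPM on day 6. Of the 12 genes tested, 3 reached 1 TPM in no day 4 well, LMO2 among them, and so entered only through day 6. Among 15 endoderm genes, 4 rose and 2 fell. The 4 that rose encode proteins secreted by liver and yolk sac endoderm. APOA2, an apolipoprotein, read 2.0, 2.58, 0.73 and 2.97 TPM in day 4 wells 1 to 4 and 138, 174, 144 and 67.4 TPM in day 6 wells 1 to 4. AFP, alpha-fetoprotein, read 1.55, 1.5, 1.02 and 2.48 TPM in day 4 wells 1 to 4 and 70.7, 99.8, 85.9 and 76.5 TPM in day 6 wells 1 to 4. Both were near absent on day 4, and they rose by 5.32 and 4.92. FGB, a fibrinogen chain, rose by 3.61 and TTR, which carries thyroid hormone and retinol-binding protein, by 3.13. SOX17, a transcription factor of early endoderm, had the largest decrease of the named genes on the log2(TPM + 1) scale, which holds back genes with few reads such as NR0B1 and TBXT. It read 26.5, 29.1, 28.5 and 29.0 TPM in day 4 wells 1 to 4 and 0.989, 0.712, 0.454 and 1.22 TPM in day 6 wells 1 to 4, with a difference of -3.99 (SE 0.18, adjusted p = 3.36e-22). FOXA2 and HNF4A, endoderm factors in the same list, were not called.

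Of 15 genes of the primitive streak and early mesoderm tested, 9 fell and 0 rose, and the median was -1.2. Of the 15, 3 reached 1 TPM in no day 6 well, TBXT among them, and so entered only through day 4. NODAL, the TGF-beta family ligand that induces the streak (chr10:70431936-70447951), read 71.1, 53.3, 64.0 and 75.5 TPM in day 4 wells 1 to 4 and 6.42, 4.45, 4.53 and 6.98 TPM in day 6 wells 1 to 4. Its difference was -3.39 (SE 0.20, adjusted p = 9.25e-19). EOMES, a T-box factor of streak and endoderm, read 14.6, 11.1, 12.6 and 13.2 TPM on day 4 and 0.951, 1.48, 0.775 and 1.68 TPM on day 6. TBXT, brachyury, was at 1.2 to 4.26 TPM on day 4 and was listed at 0 in 3 of the day 6 wells. It rested on 104 reads and 2 reads, a ratio of 0.0247 (counting interval 0.00295 to 0.0914). APLNR, the apelin receptor of early cardiac mesoderm, fell from 259.6, 231, 227 and 239 TPM to 55.1, 51.5, 49.8 and 37.3 TPM, and TDGF1, the coreceptor for NODAL, fell by 2.0 on the log2 scale. LEFTY2, PDGFRA, GSC and SNAI1 also fell. MESP1, the marker of nascent cardiac mesoderm, was under the minimum at 0.117 to 0.577 TPM on day 4 and 0 TPM on day 6.

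Of 11 pluripotency genes, 5 fell and 0 rose, and NANOG was under the minimum. VRTN, named for its effect on vertebra number, read 22.6, 23.5, 24.4 and 21.8 TPM in day 4 wells 1 to 4 and 1.8, 1.49, 1.46 and 0.899 TPM in day 6 wells 1 to 4. L1TD1, an RNA-binding protein of stem cells, went from 238, 233, 219 and 222 TPM to 34.2, 36.3, 34.1 and 34.6 TPM. DPPA4 fell by 1.47. SOX2 read 4.37 to 8.13 TPM on day 4 and 1.47 to 7.32 TPM on day 6, overlapped and was not called. Of 19 listed genes of paraxial mesoderm, the source of somites, 11 were under the minimum. Of the 8 tested, 3 fell and 1 rose. Of these 8, 3 reached 1 TPM in no day 6 well, RIPPLY1 and DLL3 among them, and so entered only through day 4. Another 1 reached it in no day 4 well. RIPPLY1, a repressor in forming somites, was at 1.85 to 2.82 TPM on day 4 and had 0 reads on day 6. Against a floor of 3 reads over the day 6 wells it was at least 9.36-fold lower. MEOX1, a homeobox gene of somites, rose from a range of 1.39 to 2.16 TPM on day 4 to one of 17.4 to 35.7 TPM on day 6. In the neural list 14 genes were listed and only 4 passed the minimum. OTX2, TUBB3 and ZIC2 fell (-1.41, -1.13 and -1.1). Among 11 genes of amnion and surface epithelium, 4 fell. Of these 11, 2 reached 1 TPM in no day 6 well, GABRP among them, and so entered only through day 4. GABRP, a GABA receptor subunit used as an amnion marker, read 15.9, 14.4, 12.1 and 14.3 TPM in day 4 wells 1 to 4 and 0.114, 0.986, 0.733 and 0.363 TPM in day 6 wells 1 to 4. GATA3 fell by 1.56.

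The remaining genes with the largest decreases did not share a list. NR0B1, an orphan nuclear receptor of stem cells, read 19.9, 18.3, 19.2 and 16.0 TPM in day 4 wells 1 to 4 and 0.244, 0, 0.224 and 1.29 TPM in day 6 wells 1 to 4. PSKH2, a protein serine kinase, fell by 3.62, and SEMA3G, a secreted semaphorin, fell by 3.32. PSKH2 reached 1 TPM in no day 6 well and so entered only through day 4. CBLN2, a secreted synapse organiser, read 86.6, 78.7, 74.2 and 91.9 TPM in day 4 wells 1 to 4 and 10.3, 9.62, 8.38 and 8.52 TPM in day 6 wells 1 to 4. It fell by 3.08. CALB1, the calcium buffer calbindin, fell by 3.0. Among the largest increases outside the lists were ALOX15, a lipoxygenase, at 2.82, 3.07, 2.31 and 4.18 TPM in day 4 wells 1 to 4 and 127, 126, 159 and 270.0 TPM in day 6 wells 1 to 4. DSC3, a desmosomal cadherin, read 2.79, 4.05, 3.15 and 3.54 TPM in day 4 wells 1 to 4 and 143, 115, 131 and 203 TPM in day 6 wells 1 to 4. AQP1, a water channel, went from a range of 1.89 to 3.03 TPM on day 4 to one of 65.4 to 141 TPM on day 6. All 3 were highest in well 4.

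**Figure D2:**
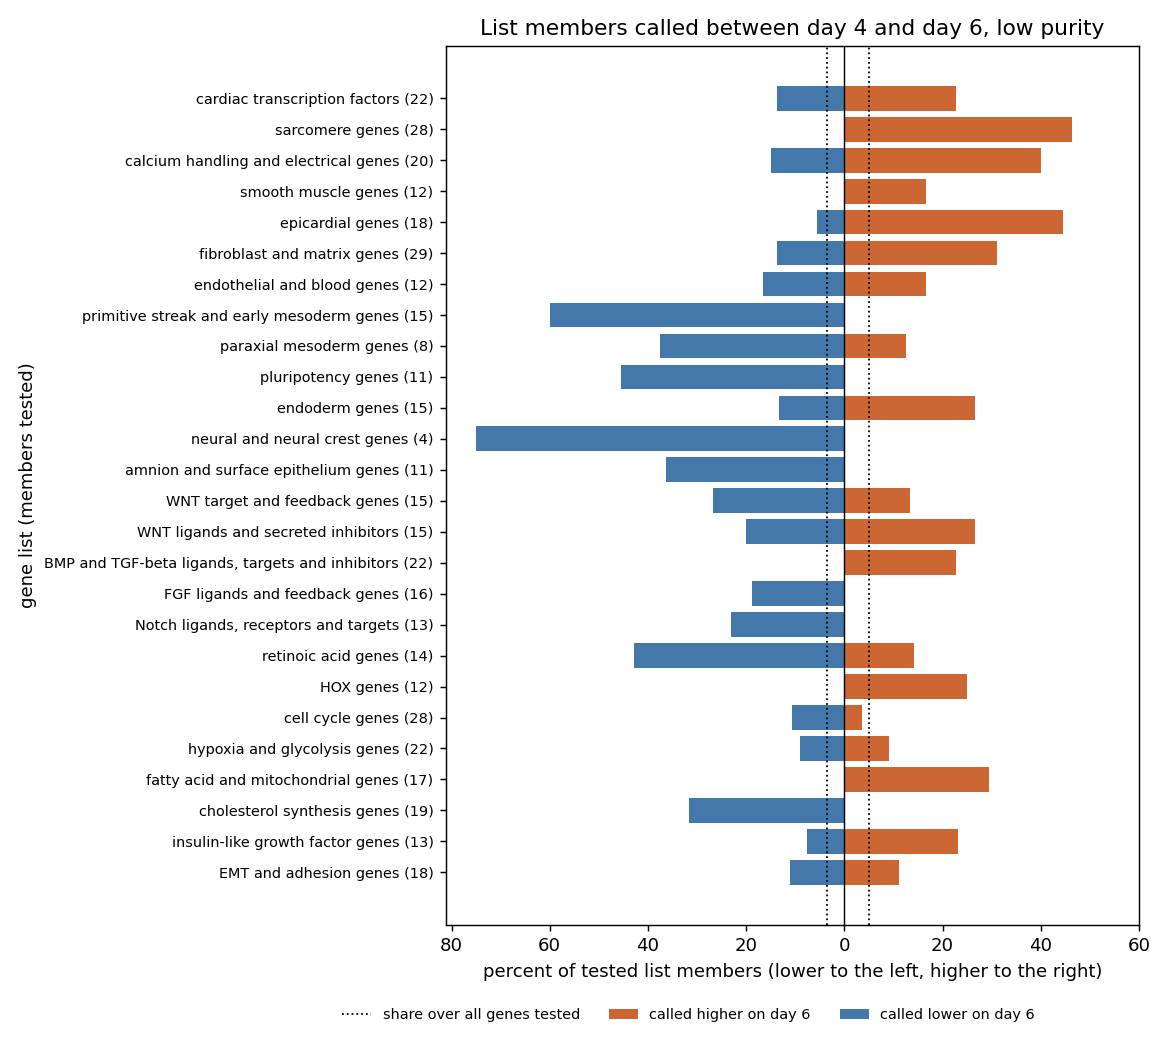
Percent of the tested members of each gene list called lower (blue, to the left) or higher (orange, to the right) on day 6 in the low purity wells, with the number tested in parentheses and dotted lines at the shares over all genes tested, 3.5% lower and 4.95% higher. Sarcomere and epicardial genes have the longest bars to the right, while the longest bar to the left, that of the neural list, rests on 4 genes, with the 15 primitive streak genes next.

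Signalling genes moved in both directions. The counts of these lists stand beside shares of 4.95% higher and 3.5% lower over all genes tested. Of 15 WNT target and feedback genes, 2 rose and 4 fell. LGR5, the receptor for R-spondins and a WNT target, read 40.7, 37.4, 35.3 and 36.5 TPM in day 4 wells 1 to 4 and 2.61, 2.65, 3.33 and 2.68 TPM in day 6 wells 1 to 4. It differed by -3.36 (SE 0.17, adjusted p = 5.49e-21). SP5, a direct WNT target, fell by 1.22 and TNFRSF19 fell by 1.17, while DKK1, a secreted WNT inhibitor, rose by 2.28. AXIN2, the most widely used WNT target, read 7.63, 10.6, 10.2 and 9.57 TPM on day 4 and 17.0, 16.7, 18.3 and 19.9 TPM on day 6. Its wells did not overlap, but its difference of 0.80 (SE 0.10, adjusted p = 2.64e-09) was under the threshold. LEF1 overlapped. Among 15 ligands and secreted inhibitors, 4 rose and 3 fell. FRZB, a secreted WNT antagonist, rose by 2.5, RSPO2 by 2.24 and WNT11, a ligand of heart formation, by 1.68. SFRP1, SFRP2 and WNT5A fell.

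Of 22 BMP and TGF-beta genes, 5 rose and 0 fell. SMOC2, a matricellular protein, rose by 2.55, TGFB3 by 1.78, MSX1, a target of BMP signals, by 1.54 and BMP10, a ligand made by heart muscle, by 1.18. BMP4 read 221 to 247 and 255 to 355 TPM and was not called. Of 16 FGF genes 3 fell. DUSP6, the phosphatase that reports ERK activity, went from 134, 125, 133 and 129 TPM to 54.4, 54.8, 53.9 and 44.5 TPM, and FGF10, a ligand of second heart field cells, fell by 1.12. Of 13 Notch genes 3 fell, DLL3, HEY2 and JAG1. DLL3 reached 1 TPM in no day 6 well and so entered only through day 4. HEY2, a transcriptional repressor found in the ventricle, read 17.5, 18.6, 20.6 and 17.2 TPM on day 4 and 9.4, 8.28, 6.43 and 5.9 TPM on day 6. JAG1 was not called without well 4.

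Of 14 retinoic acid genes 2 rose and 6 fell. CYP26A1, the enzyme that breaks down retinoic acid, read 24.6, 31.6, 30.6 and 28.8 TPM in day 4 wells 1 to 4 and 3.75, 3.37, 2.15 and 2.98 TPM in day 6 wells 1 to 4. RDH10, which makes retinaldehyde, fell by 1.48, CRABP1, a binding protein, fell by 1.59, and ALDH1A3 and RARB also fell. ALDH1A1, given above, rose, and STRA6 was called higher but not without day 6 well 4 (0.92). Of 12 HOX genes 3 rose and 0 fell. HOXC8 read 0.131, 0.886, 0.573 and 1.98 TPM in day 4 wells 1 to 4 and 5.28, 3.63, 5.14 and 9.66 TPM in day 6 wells 1 to 4. HOXB8 rose by 1.55 and HOXB7 by 1.34, all 3 at low levels. HOXB8 read 0.137 to 0.676 TPM on day 4 and 2.76 to 4.1 TPM on day 6, and so entered only through day 6. Among 13 genes of the insulin-like growth factor system, IGF2, the fetal growth factor, rose from a range of 4.65 to 5.68 TPM on day 4 to one of 21.8 to 36.3 TPM on day 6. IGFBP7 rose by 2.35 and IGFBP5 by 1.16, while IGFBP4 fell by 1.19.

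Of 28 cell cycle genes tested, 1 rose and 3 fell, and the median was -0.75 against -0.015 over all genes. Over all genes tested 4.95% rose and 3.5% fell. MKI67, the proliferation marker, read 228, 235, 231 and 238 TPM on day 4 and 139, 137, 132 and 138 TPM on day 6. Its wells did not overlap, and its difference was -0.83 (SE 0.08, adjusted p = 3.28e-11). CDC6, which licenses replication origins, fell by 1.23 and BIRC5 fell by 1.13, while CDKN2B, an inhibitor of CDK4 and CDK6, rose by 1.46. MCM4 fell by 1.0 and lay at the threshold, with the call ended under 16 alternatives. Cholesterol synthesis had a similar median, -0.82, with 6 of 19 genes falling and 0 rising. SC5D, an enzyme near the end of the pathway, read 424, 384, 349 and 393 TPM in day 4 wells 1 to 4 and 139, 147, 119.9 and 95.9 TPM in day 6 wells 1 to 4. DHCR7 fell by 1.13 and INSIG1, the feedback regulator of the pathway, fell by 1.19. Of 17 fatty acid and mitochondrial genes 5 rose and 0 fell. PDK4, which diverts cells from glucose oxidation, rose from a range of 0 to 0.85 TPM on day 4 to one of 2.27 to 10.9 TPM on day 6. It entered only through day 6. CKM, the muscle creatine kinase, rose by 2.12, PPARGC1A, a regulator of mitochondrial genes, by 1.61, and FABP3, the heart fatty acid carrier, by 1.28. All 4 were lowest on day 6 in well 4.

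Both main glucose transporters of stem cells changed, in opposite directions. SLC2A3 (GLUT3) read 1195, 1074, 1046 and 1215 TPM in day 4 wells 1 to 4 and 354, 394, 384 and 337 TPM in day 6 wells 1 to 4. SLC2A1 (GLUT1) read 46.2, 44.7, 38.0 and 47.7 TPM in day 4 wells 1 to 4 and 168, 156, 167 and 249 TPM in day 6 wells 1 to 4. Neither overlapped between days, with differences of -1.68 (SE 0.16, adjusted p = 4.93e-12) and 1.96 (SE 0.09, adjusted p = 2.69e-21). In the hypoxia and glycolysis list as a whole 2 of 22 rose and 2 fell, against 4.95% and 3.5% of all genes tested. BNIP3, a hypoxia-induced mitophagy receptor, overlapped, at 163 to 183 and 141 to 173 TPM. VIM, the intermediate filament of mesenchymal cells, was among the most abundant of the genes that fell. It read 4272, 4087, 3916 and 4131 TPM in day 4 wells 1 to 4 and 1333, 1347, 1421 and 1544 TPM in day 6 wells 1 to 4. In the same list of mesenchymal transition and adhesion genes ITGA8 rose by 1.11 and TGFBI by 1.03, and SNAI1 fell by 1.06. The calls of SNAI1 and TGFBI ended under 4 and 2 alternatives.

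Day 6 well 4 held less of the sarcomere transcripts and more of the epicardial and matrix transcripts than the other day 6 wells. Over the 27 sarcomere genes with a mean of at least 5 TPM on day 6, its median level was -0.88 from the mean of the other 3 wells, and it was the lowest well for 25 of them. Over 13 epicardial genes the median was 0.65, and it was the highest well for 12. Over 25 fibroblast and matrix genes the median was 0.38, and it was highest for 17. Over all 12883 genes at that level the median was 0.03, and it was lowest for 4280 and highest for 3432. Endoderm genes were also lower in it (-0.40, lowest for 11 of 13), and cholesterol synthesis genes higher (0.35, highest for 15 of 18). Without it, sarcomere genes called higher numbered 16 in place of 13, epicardial genes 9 in place of 8, endothelial and blood genes 5 in place of 2, and cardiac transcription factors called lower 1 in place of 3. In the fibroblast and matrix list the counts stayed at 9 higher and 4 lower, with THY1 lost and ELN gained.

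**Figure D3:**
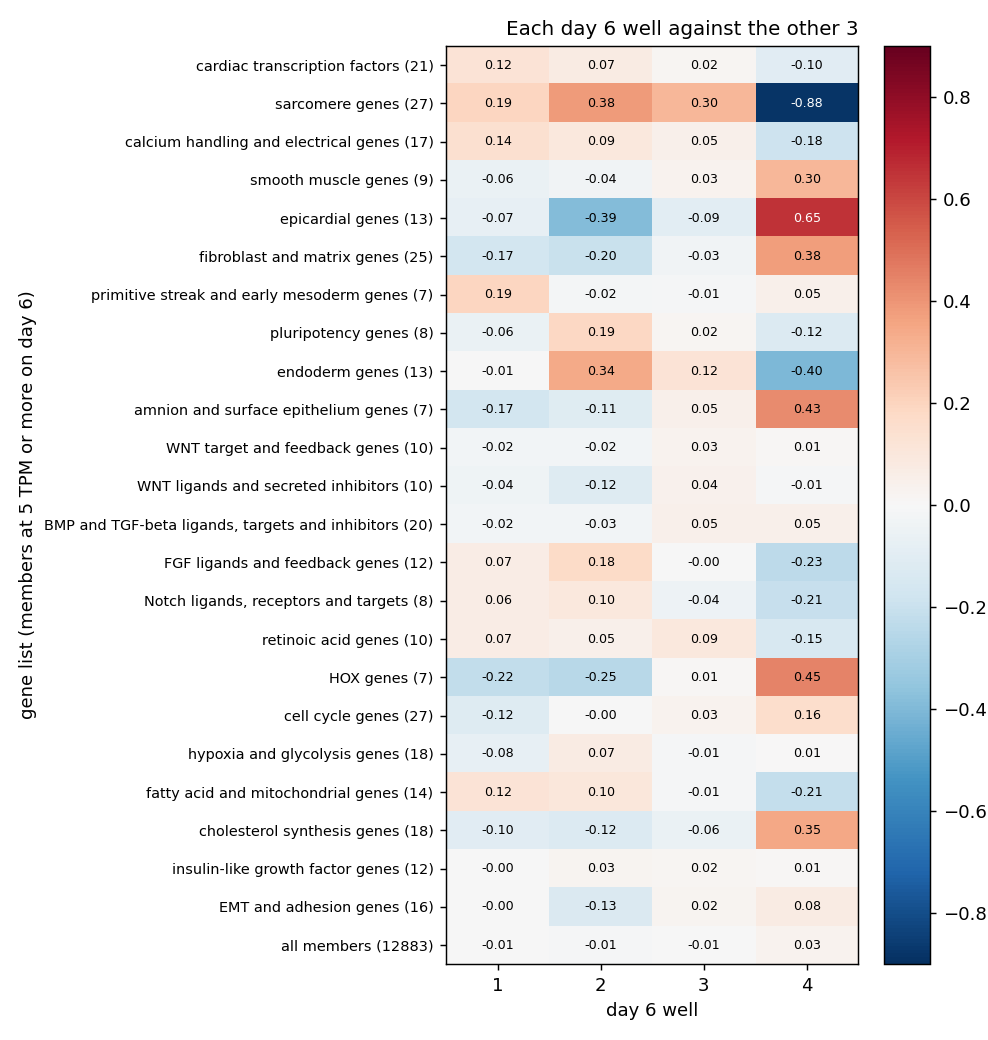
Median, over the members of each list at 5 TPM or more on day 6, of the log2 level in 1 day 6 well minus the mean of the other 3, for wells 1 to 4, with lists of at least 5 such members. Well 4 is lowest for sarcomere genes (-0.88) and highest for epicardial genes (0.65), while the median over all 12883 genes at that level is 0.03 in well 4 and -0.01 in each other well.

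The same 2 days in the high purity wells give the change that accompanied a purer outcome. The difference between the changes (low minus high) was called for 8.77% of genes, 825 with the higher change in the low purity wells (4.18%) and 908 with the lower (4.6%). The genes tested were those chosen by the low purity wells alone. Genes that reached 1 TPM only in high purity could not enter, such as PECAM1 (2.97 to 4.86 TPM there on day 6) and MESP1 (4.58 to 6.62 TPM there on day 4). The counts below thus describe only genes expressed in low purity. Of the 28 sarcomere genes, 19 had a called lower change in low purity and 2 a higher one. The median change of the list was 0.86 in low and 3.06 in high purity. TNNT2 read 10.3 to 20.8 TPM on day 4 and 656 to 1751 TPM on day 6 in high purity, so the low purity wells held the higher TNNT2 on day 4 and the groups overlapped on day 6. Its changes were 0.95 and 6.04, and their difference was -5.09 (SE 0.39, adjusted p = 1.95e-14). MYH6 read 3.66 to 10.3 TPM on day 4 and 1138 to 2079 TPM on day 6 in high purity, with a difference between the changes of -5.55 (SE 0.35, adjusted p = 4.65e-17). ACTC1 read 49.2 to 64.5 TPM on day 4 and 1149 to 1940.4 TPM on day 6 there. It changed by 4.65 in high and -0.61 in low purity, a difference of -5.26 (SE 0.21, adjusted p = 1.99e-23). SMYD1, a methyltransferase of muscle assembly, and XIRP1 also had lower changes in low purity, with differences of -5.53 and -5.39. NKX2-5 also had the lower change in low purity, with a difference of -2.19 (SE 0.36, adjusted p = 3.9e-06). MYL3 and MYH7 were the 2 sarcomere genes with the higher change in low purity. MYH7 had entered only through low purity day 6, which favours a higher change there.

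Of 18 epicardial genes 9 had a called higher change in low purity and 3 a lower one, and of 29 fibroblast and matrix genes 8 and 4. Of the 18 epicardial genes, 4 had entered only through low purity day 6, which favours a higher change there. RSPO1 read 2.26 to 3.21 TPM on day 4 and 0 to 0.265 TPM on day 6 in high purity and had the largest positive difference of the named genes, 6.01 (SE 0.22, adjusted p = 6.72e-25). PAPPA, a protease that frees insulin-like growth factors, rose from a range of 4.37 to 5.5 TPM on day 4 to one of 36.5 to 68.9 TPM on day 6 in low purity and read 20.1 to 25.2 TPM on day 4 and 4.47 to 5.05 TPM on day 6 in high purity. CXCL14, a chemokine, read 3.84 to 6.66 and 33.8 to 80.3 TPM in low purity and 11.9 to 17.7 TPM on day 4 and 3.88 to 5.4 TPM on day 6 in high purity. SHISA3, a WNT and FGF receptor inhibitor, read 26.5 to 37.3 and 36 to 61.7 TPM in low purity and 95.4 to 108 TPM on day 4 and 0.879 to 4.34 TPM on day 6 in high purity. Its difference of 5.33 (SE 0.35, adjusted p = 2.44e-16) stood beside a change of 0.49 in low purity that was not called. SLN was listed at 0 in all day 4 wells of high purity and read 0 to 1.06 TPM there on day 6, and its fitted difference was 5.15 (SE 0.40, adjusted p = 2.96e-14). SLN too had entered only through low purity day 6, which favours a higher change in low purity. ALOX15 differed by 4.65. HAND1 and MSX1 rose in low purity and were lower on day 6 than on day 4 in high purity (-1.74 and -2.28), differing by 2.89 and 3.82.

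Of 15 endoderm genes 6 had a called lower change in low purity and 1, AFP, a higher one. TTR read 0 to 0.212 TPM on day 4 and 615 to 982 TPM on day 6 in high purity and 19.1 to 25.4 and 136 to 293 TPM in low purity, so it was raised from near 0 in high purity and from a higher start in low purity. Its difference of -6.28 (SE 0.31, adjusted p = 1.77e-20) was the most negative of all named genes. AFP was also higher on day 6 in all wells of both, and the sign of its difference depended on the pseudocount: 1.37 with 1 TPM added and -0.73 with 0.1 TPM, and it was also negative by edgeR and DESeq2 on recovered reads. Among early genes, EOMES had the larger decrease in high purity, from a range of 95 to 122 TPM to one of 1.11 to 1.85 TPM, and its difference was 2.88 (SE 0.17, adjusted p = 1.15e-17). NODAL had the larger decrease in low purity, with a difference of -1.39 (SE 0.28, adjusted p = 9.34e-05), and was higher there on day 4. CBLN2, APLNR, VIM and SLC2A3 fell in low purity and changed by 0.13, 0.66, -0.07 and -0.13 in high purity, with differences of -3.22, -3.01, -1.54 and -1.55. LGR5, NR0B1, PSKH2 and CALB1 fell in low purity with no called difference between the differentiations.

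**Figure D4:**
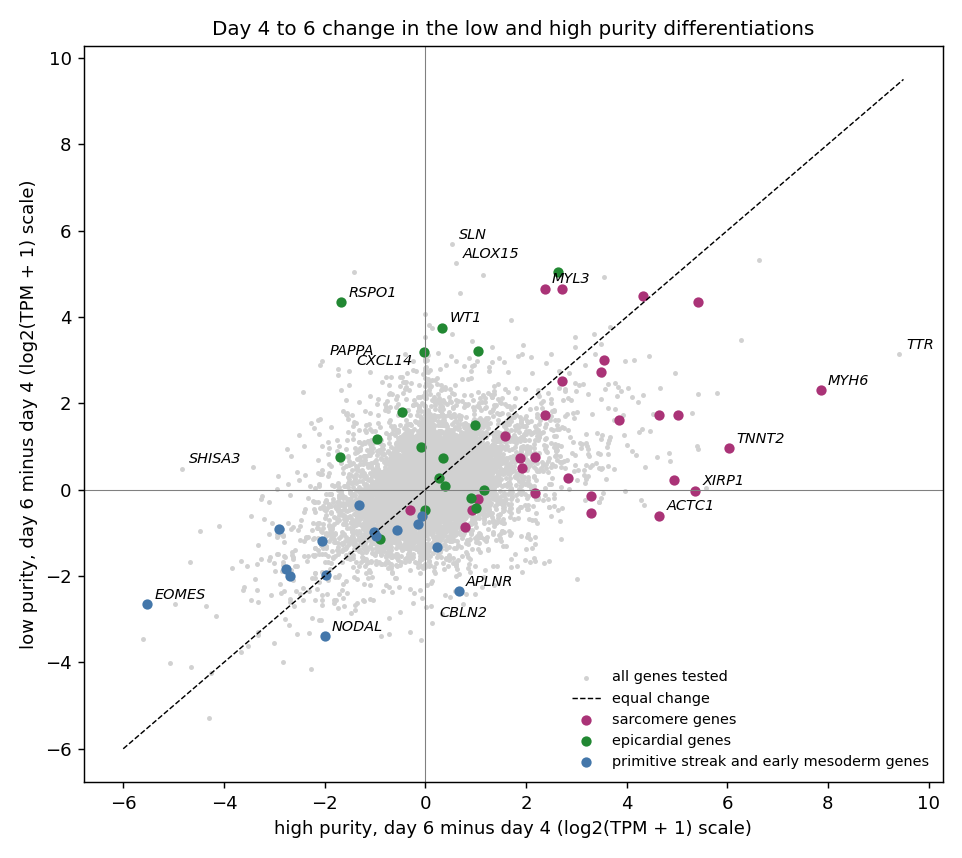
Difference between day 6 and day 4 in the high purity wells (x axis) and in the low purity wells (y axis), both on the log2(TPM + 1) scale, for all 19754 genes, with 3 gene lists in colour and a dashed line of equal change. Most sarcomere genes lie below the line, among them MYH6 at 7.86 and 2.31, and RSPO1, WT1 and SLN lie above it.

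Other days of the low purity differentiation place these values. TNNT2 was 0.87 ± 0.704 TPM on day 2 and 1361 ± 234 TPM on day 8 (SD, n = 4 for both), and 489 ± 27.4 TPM on day 4, so it was already high when the interval began. MYH6 was 1098 ± 307 TPM on day 8 and 559 ± 142 TPM on day 10. MYH7 went on from 34.9 ± 12.4 TPM on day 6 to 489.9 ± 146 TPM on day 13. SLN had its highest mean of the 8 days on day 6, and stood at 24.6 ± 2.58 TPM on day 8 and 5.23 ± 2.31 TPM on day 13. WT1 was 79.8 ± 6.38 TPM on day 8 and 103 ± 8.0 TPM on day 10. LUM was listed at 0 in every well of days 0 and 2, and was 779.6 ± 137 TPM on day 10. NODAL had its highest mean on day 2, at 109 ± 5.97 TPM. AFP was 178 ± 40.1 TPM on day 8 and 2117 ± 179 TPM on day 10. These later values are given as a description and were not tested.

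**Figure D5:**
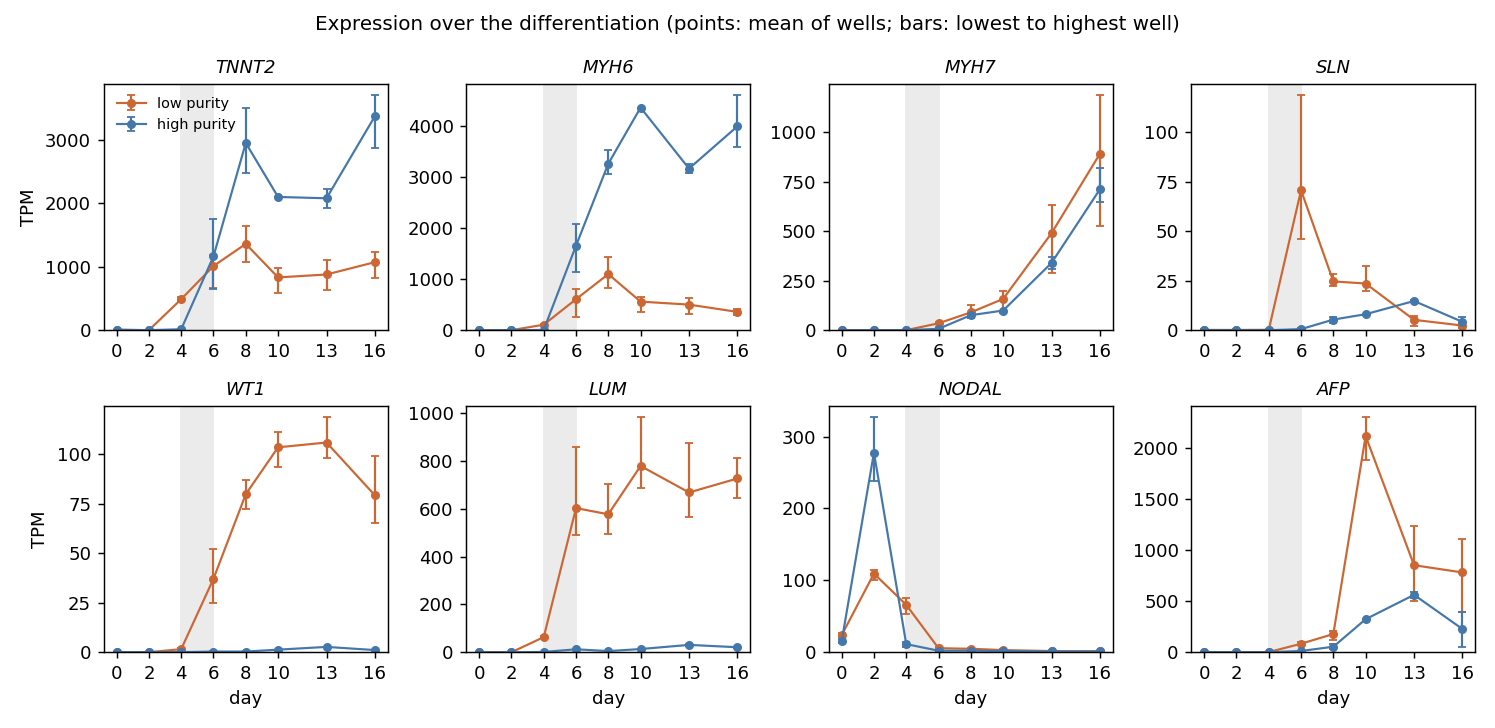
Mean TPM over days 0 to 16 for 8 genes in the low purity (orange) and high purity (blue) wells, with bars from the lowest to the highest well and days 4 to 6 shaded; each point has 4 wells in low purity except day 16 (3), and in high purity 3 wells on days 8 and 16, 2 on day 13 and 1 on day 10. SLN peaks on day 6 in low purity, WT1 and LUM stay near the axis in high purity, and TNNT2 starts to rise earlier in low purity.

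A separate experiment of total RNA libraries held a low purity differentiation of 3 lines, with 1 library at each step and so no test. WTC11 was sampled on days 4 and 6, and H9, an embryonic stem cell line, and IMR90-4, another induced line, on days 5 and 7. Of the genes called higher, 80.3% were higher at the later day in WTC11, against 77.0% of all genes tested. The shares were 70.8% against 51.7% in IMR90-4 and 72.8% against 61.9% in H9. In WTC11 the share was thus near that of all genes. Of the genes called lower, 54.4%, 69.3% and 55.7% were lower at the later day, against 22.2%, 47.2% and 36.6%. TNNT2 went from 0.613 to 123 TPM in WTC11, 1.6 to 255 TPM in IMR90-4 and 28.9 to 46.3 TPM in H9. The 4 multi-omic wells of day 4, also at passage 69, read 457 to 524 TPM, in a table normalized separately. LUM went from 0.988 to 13.2 TPM in WTC11, 0.384 to 14.8 TPM in IMR90-4 and 153 to 322 TPM in H9. WT1 went from 16.8 to 39.5 TPM and DCN from 9.04 to 68.7 TPM in H9, and both were under 1 TPM in the libraries of WTC11 and of IMR90-4. LGR5 was lower at the later day in all 3 lines, from 4.89 to 0.952 TPM, 3.63 to 1.06 TPM and 0.877 to 0.321 TPM. NODAL went from 3.55 to 1.6 TPM in WTC11, but was higher at the later day in IMR90-4 and H9 (0.874 to 3.64 TPM and 1.02 to 14.1 TPM). The 2 experiments used different library kits, and their levels were not tested against each other.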

How the data were processed

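RNA of 8 low purity wells, and of the high purity wells of the same days, was sequenced as strand-marked poly(A) libraries. The authors deposited TPM values and read counts per gene. The submitters' processing notes name STAR 2.5.3a, featureCounts 2.0.3 and hg38, with no role or strand setting. The TPM values were used. Of the 56 columns of deposited multi-omic counts, 0 matched the TPM column of the same name, and 50 TPM columns matched a count column under another name, so it was not used. The deposited counts of the RNA-only libraries, with their TPM, gave gene lengths, from which whole reads were recovered for 37194 genes. The tolerance was 0.02 reads, and wider in proportion for large values. A gene was kept only if its values came out whole in every library.

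TPM values were scaled by TMM (edgeR 4.0.16), 1 TPM was added, and limma 3.58.1 in R 4.3.3 was fitted to log2 values of all 56 multi-omic libraries as 16 group means (40 residual degrees of freedom), so that all groups shared 1 estimate of the spread. P-values were adjusted by Benjamini-Hochberg over 19754 genes. The difference between the differentiations was a contrast of the same fit. Single values were compared by two-sided exact permutation tests (scipy 1.17.1). The limma p-values rest on the spread between wells within a group, pooled over the 16 groups of both differentiations. With 1 differentiation in each purity class, no p-value measures the spread between differentiations. The procedure was tested on simulated data. Alternatives covered scaling, pseudocount, filters, the fold threshold, the samples fitted, a replicate block, edgeR and DESeq2 1.42.0 on recovered reads, and leaving out each well.

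Named genes were the 12 largest called increases and decreases of protein-coding genes with at least 5 TPM and no overlap between days, up to 4 called genes per list, the 6 largest differences between the differentiations in each direction, and a fixed set of markers. Others are named only as members of a list. The gene set, the 26 lists and the rules were chosen with earlier results of these data known. Gene names were matched to RefSeq on GRCh38.p14 for 18299 of the 19754 genes tested, and promoters are RefSeq's.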

Additional observations from a re-analysis of the deposited data

Results flagged for a closer look

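In 256 groups of 4 wells (the named genes on each day in low purity), 18 held a well farther from its neighbours than Dixon's 95% limit for 4 samples allows. Chance alone is expected to give such a mark in about 5% of groups. Day 6 well 4 was the well in 13 of the 18, high for 8 genes and low for 5. It was the high well for LUM (859 TPM, others 490.1 to 545), GJA1 (490.7 TPM, others 381 to 389), KDR (296 TPM, others 224 to 235), SLC2A1 (249 TPM, others 156 to 168), ITGA8 (119.95 TPM, others 76.4 to 82.4), TAGLN (100.4 TPM, others 81.1 to 84.2), CXCL14 (80.3 TPM, others 33.8 to 36.6) and NDRG1 (33.5 TPM, others 20.8 to 22.6). It was the low well for DUSP6 (44.5 TPM, others 53.9 to 54.8), XIRP1 (36.5 TPM, others 68.8 to 74.8), MYH7 (16.5 TPM, others 39.3 to 42.9), NKX2-5 (7.71 TPM, others 25.4 to 27.5) and SYNPO2 (3.44 TPM, others 4.28 to 4.42). The remaining 5 marks fell on LGR5 in day 6 well 3 (3.33 TPM), TBXT in day 6 well 2 (0.323 TPM), MYBPC3 in day 4 well 2 (1.16 TPM), KRT17 in day 4 well 2 (3.23 TPM) and ISL1 in day 4 well 3 (29.8 TPM).

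The change from day 4 to day 6 differed between the low and high purity differentiations for 1733 genes by limma's contrast. The genes tested were chosen by the low purity wells alone, and of those named here RSPO1 and SLN entered only through low purity day 6. The named genes with the largest positive differences (change in low minus change in high) were RSPO1 (6.01 on the log2 scale), SHISA3 (5.33), SLN (5.15), PAPPA (5.04), ALOX15 (4.65) and CXCL14 (4.27). Those with the most negative differences were TTR (-6.28), MYH6 (-5.55), SMYD1 (-5.53), XIRP1 (-5.39), ACTC1 (-5.26) and TNNT2 (-5.09). Purity, passage and differentiation cannot be told apart in this contrast.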

How the results depend on the processing

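The 1669 genes called between days and the 1733 called for the difference between the differentiations stayed within 1.5 times under scaling, pseudocount, looser filters, the samples fitted, edgeR (2323 and 2028), DESeq2 (2332 and 2074) and leaving out each well (1638 to 1721 and 1589 to 1810). With at least 5 TPM in 3 of the 8 wells the counts were 1099 and 1061, over 13393 genes, and with no fold threshold 8764 (3958 higher, 4806 lower) and 5730. The well numbers did not pair the wells (correlations of deviations 0.046, 0.048, -0.023 and 0.058 for numbers 1 to 4), and a replicate block gave 1668 and 1736 calls. Without day 6 well 4, ISL1 (-0.89), JAG1 (-0.94), MCM4 (-0.98), NDRG1 (0.96), TGFBI (0.98), IRX3 (-0.91), STRA6 (0.92), THY1 (-0.98) and NOTUM (-0.99) were not called, and TNNT2 (1.18) was. Leaving out 1 well also ended the calls of NKX2-5 (0.92 at the lowest), SNAI1, SP5, TUBB3, ZIC2 and FGF17. AFP's difference between the differentiations was 1.37, but -0.73 with 0.1 TPM added, -1.81 by edgeR and -2.16 by DESeq2, and that of RIPPLY1 was -0.67 by edgeR. The cause was not tested. XIRP1's uncalled day difference of -0.027 changed sign: 0.023 with RLE scaling, 0.034 with no scaling, 0.033 without mitochondrial genes and RN7SK, 0.072 at 5 TPM, 0.016 with only the groups compared, 0.048 by edgeR and 0.069 by DESeq2. Leaving out 1 well gave -0.069 to 0.25 for XIRP1 and -0.079 to 0.40 for SMYD1. Genes with few reads on 1 day, such as SLN, RSPO1 and TBXT, have folds limited by depth.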
